A study of Homo sapiens with 21 samples.

Results

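NOTCH receptors, one of their ligands and their target genes were followed in BJ cells, a human skin fibroblast line whose cultures stop dividing after many passages. The set holds 9 of the 61544 genes in the count table, chosen by gene name: the receptors NOTCH1, NOTCH2 and NOTCH3, the ligand JAG1, and the target genes HES1, HES4, HEY1, HEY2 and HEYL. RNA was sequenced after poly(A) selection from 21 libraries in 7 groups of 3. Of these groups, 5 were cells at passage P3, P11, P24, P30 or P33 with no agent named. The other 2 were P11 cells given doxorubicin at 50 ng/ml (called DOX here) or DMSO, its solvent control. All groups came from this single line. How long the agents were given is not stated in the labels, nor is it stated that replicates came from separate cultures; the p-values therefore reflect only library-to-library spread, which could be technical.

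NOTCH receptors are cell-surface proteins that are switched on by ligands on a neighbouring cell. Ligand binding leads to cleavage by ADAM proteases and then by gamma-secretase, and the freed intracellular domain joins the DNA-binding protein RBPJ and its MAML coactivators at target genes. HES and HEY genes are the classical targets and encode bHLH transcription repressors. In skin fibroblasts the pathway is known for cell-to-cell contact signalling, and in senescent fibroblasts for its part in the change of the secreted factors over time.

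Totals ran from 12.946 to 27.194 M counts per library. Levels are CPM (reads of a gene relative to a library's total) on library sizes scaled by the TMM method, and each is given as mean ± SD with n = 3. A gene is said to have risen or fallen only where edgeR's quasi-likelihood test over 16821 genes gave a Benjamini-Hochberg adjusted p under 0.05. Levels of different genes are not compared, since the lengths in the table include introns. All 12 fibroblast markers on the list had reads in every group, with summed levels of 18400 to 31000 CPM in the passage libraries and 48100 to 50100 CPM in the DOX and DMSO libraries. Summed endothelial markers stayed between 2.29 and 6.35 CPM in all libraries. The 7 keratinocyte markers summed to 12.2 to 28.9 CPM, nearly all of it KRT10, and KRT5 had no read in any library. Of the list, DSG3 had 2 reads at P3 and 63 at P33, and 0 with DMSO and 76 with DOX. The 6 leukocyte markers summed to 0.539 to 2.51 CPM. In RNA from a whole culture, fewer cells of a type and less RNA per cell cannot be told apart. The DOX and DMSO libraries carried reads on 3950 of the 9429 genes nested in a larger gene of the same strand, and the passage libraries on 0 of them, so the parts of the table were counted differently and each comparison of groups stays within one part. None of the 9 genes lies inside another gene.

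Across the passages, NOTCH3, JAG1, HES1 and HES4 all had their highest mean at P30, and HEY1 had its highest at P33. NOTCH1 was highest at P24, and the passage means of NOTCH2 stayed within 1.09-fold. A test of any difference among the 5 passages was passed by 6 of the 8 members that could be tested, against 82.9% of all genes tested. The members that did not pass were NOTCH2 (adjusted p = 0.162) and HEYL (adjusted p = 0.303). HEY2 had too few reads to be tested.

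NOTCH3 is a receptor best known from pericytes and smooth muscle cells, and it lies at chr19:15159038-15200995 on the minus strand (GRCh38). Its level was 21.2, 22.7 and 22.8 CPM at P3, and 16.2, 17 and 17.1 CPM at P11. It was 32.9, 36.0 and 38.4 CPM at P24, 41.5, 37.6 and 41.5 CPM at P30, and 29.7, 27.5 and 27.6 CPM at P33. In order of mean the passages ran P11, P3, P33, P24, P30, and only the ranges of P24 and P30 overlapped between neighbours in that order. NOTCH3 fell from P3 to P11 (log2 fold change -0.41, SE 0.0823, adjusted p = 1.32e-04). It rose 2.14-fold from P11 to P24 (log2 1.10, SE 0.0801, adjusted p = 8.87e-13). It did not pass from P24 to P30 (log2 0.16, adjusted p = 0.083), although it did so without P24 replicate 3 (0.22, adjusted p = 0.0409) or without P30 replicate 2 (0.21, adjusted p = 0.0477). From P30 to P33 it fell by 0.51 on the log2 scale (SE 0.0744, adjusted p = 1.04e-06). The P33 level was 1.27-fold above that at P3 (log2 0.35, SE 0.0759, adjusted p = 1.48e-04).

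NOTCH1 (chr9:136494433-136546048, minus strand), a receptor of most cell types, moved within a narrower range. It had 15.3, 16.6 and 13.6 CPM at P3, 15.8, 18.3 and 15.8 CPM at P11, and 22.0, 19.9 and 23.1 CPM at P24. At P30 it had 13.5, 15.4 and 18.0 CPM, and at P33 it had 17.6, 14.8 and 16.4 CPM. The 3 P24 libraries were above all other passage libraries, and the remaining passages overlapped. NOTCH1 rose 1.30-fold from P11 to P24 (log2 0.38, SE 0.0934, adjusted p = 0.00171) and fell by 0.49 on the log2 scale from P24 to P30 (SE 0.096, adjusted p = 1.29e-04). P33 against P3 did not pass (log2 0.10, adjusted p = 0.369).

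NOTCH2 (chr1:119911553-120100779, minus strand), another receptor of broad expression, passed no comparison. Its passage means lay between 213 ± 1.9 CPM at P30 and 233 ± 11 CPM at P3, a 1.09-fold span, and neighbouring passages in that order overlapped. From P3 to P33 the log2 change was -0.10 (adjusted p = 0.113), and without P3 replicate 3 it was -0.14 (adjusted p = 0.0403). NOTCH2 has near-identical copies, the NOTCH2NL genes, so reads could be shared between them. NOTCH2NLA, NOTCH2NLB and NOTCH2NLR overlap NBPF genes, and NOTCH2NLC overlaps ENSG00000286185. None of these copies had a read in the passage libraries.

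**Figure D1:**
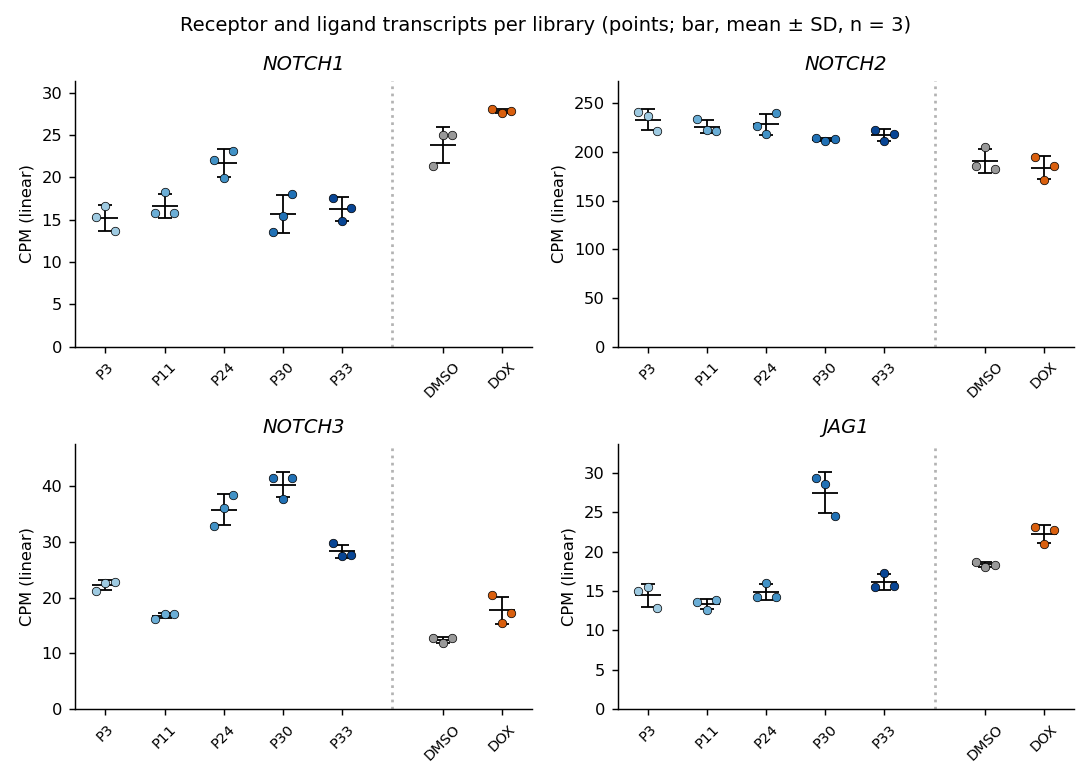
Levels of NOTCH1, NOTCH2, NOTCH3 and JAG1 in CPM (linear axis) for each library, by passage and, right of the dotted line, for DMSO and DOX at P11; points are libraries and bars are mean ± SD with n = 3. NOTCH3 was lowest at P11 (16.8 CPM) and highest at P30 (40.2 CPM), JAG1 stood out at P30 (27.5 CPM), and NOTCH2 stayed between 213 and 233 CPM over the passages.

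JAG1 (chr20:10637684-10673999, minus strand) encodes Jagged-1, a ligand that activates NOTCH receptors on adjacent cells. Its level was 15, 15.5 and 12.8 CPM at P3, 13.6, 12.6 and 13.9 CPM at P11, and 14.2, 16 and 14.3 CPM at P24. It was 29.3, 28.6 and 24.5 CPM at P30, and 15.5, 17.3 and 15.6 CPM at P33. The 3 P30 libraries were above all other passage libraries. The ranges of the other passages overlapped their neighbours in order of mean, while those of P11 and P24 did not overlap each other. JAG1 rose 1.86-fold from P24 to P30 (log2 0.89, SE 0.0827, adjusted p = 1.53e-10). It fell 1.72-fold from P30 to P33 (log2 -0.78, SE 0.0809, adjusted p = 1.23e-09). Between P3 and P33 it did not pass (log2 0.15, SE 0.0834, adjusted p = 0.11), whereas with a minimum count of 50 it did (0.23, adjusted p = 0.0157). An antisense gene on the opposite strand, ENSG00000270792, had 293 reads over the 15 passage libraries, and the sources used here do not state whether counting used strand.

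The target genes were fewer in reads. HES1 and HES4 are shown first by sequence, because their promoters share an arrangement of sites. RefSeq promoters (GRCh38.p14; the 250 bases before the annotated start) were examined for 8 of the 9 members. HEY1 was left out, so nothing is said here of sites in its promoter. The letters GTGGGAA, a core of the site that RBPJ binds, were searched on both strands and found in HES1, HES4, HEY2 and HEYL. They were found in none of NOTCH1, NOTCH2, NOTCH3 and JAG1, and in 5.43% of all 35116 promoters. GTGTGAA, another form of the site, was found in HES1 and HES4 of the 8, and in 2.48% of all promoters. Each sequence below runs 5′ to 3′ on its gene's strand, and the capitals mark GTGGGAA and, on the other strand, GTGTGAA (read here as TTCACAC) or GTGGGAA (read as TTCCCAC).
HES1: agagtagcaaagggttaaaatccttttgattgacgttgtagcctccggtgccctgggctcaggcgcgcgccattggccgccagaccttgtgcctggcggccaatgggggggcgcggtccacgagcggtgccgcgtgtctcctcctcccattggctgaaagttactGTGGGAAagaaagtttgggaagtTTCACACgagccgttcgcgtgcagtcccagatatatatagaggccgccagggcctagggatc
HES4: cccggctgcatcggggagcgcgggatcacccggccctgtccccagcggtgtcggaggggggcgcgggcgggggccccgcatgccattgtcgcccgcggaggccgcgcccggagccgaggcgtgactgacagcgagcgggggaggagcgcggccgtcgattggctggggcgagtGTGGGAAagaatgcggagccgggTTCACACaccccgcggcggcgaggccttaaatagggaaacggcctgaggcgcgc
HEY2: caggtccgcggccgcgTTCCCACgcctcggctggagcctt
HEYL: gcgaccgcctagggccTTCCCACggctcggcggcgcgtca
The HES1 stretch is chr3:194135898-194136147 (plus strand) and the HES4 stretch chr1:1000098-1000347 (minus strand). The HEY2 and HEYL stretches are 40 bases long, at chr6:125749403-125749442 (plus strand) and chr1:39639798-39639837 (minus strand). The RefSeq starts of HES4, HEY2 and NOTCH2 lie inside the spans that the count table gives these genes. Part of the HES4 promoter, and all of those of HEY2 and NOTCH2, therefore falls within the counted gene. In HES1 the GTGGGAA run lies 85 to 79 bases before the start and the facing GTGTGAA 62 to 56 bases before it, and in HES4 they lie at 77 to 71 and 54 to 48 bases. The runs do not overlap, and both pairs have 16 bases between them. A GTGGGAA followed within 40 bases by a facing GTGTGAA occurred in 5 of the 35116 promoters (0.0142%), the other 3 being FST with 11 bases between, RPGRIP1 with 7 and LOC124903908 with 25. Only this order and orientation, the one seen in HES1 and HES4, was counted. The same pair on the opposite strand and facing pairs of GTGGGAA were not, so the share does not cover all paired sites. Paired sites of this facing kind are known from NOTCH target genes, where RBPJ complexes bind side by side. A match is a description of letters and does not show that a protein was bound.

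**Figure D2:**
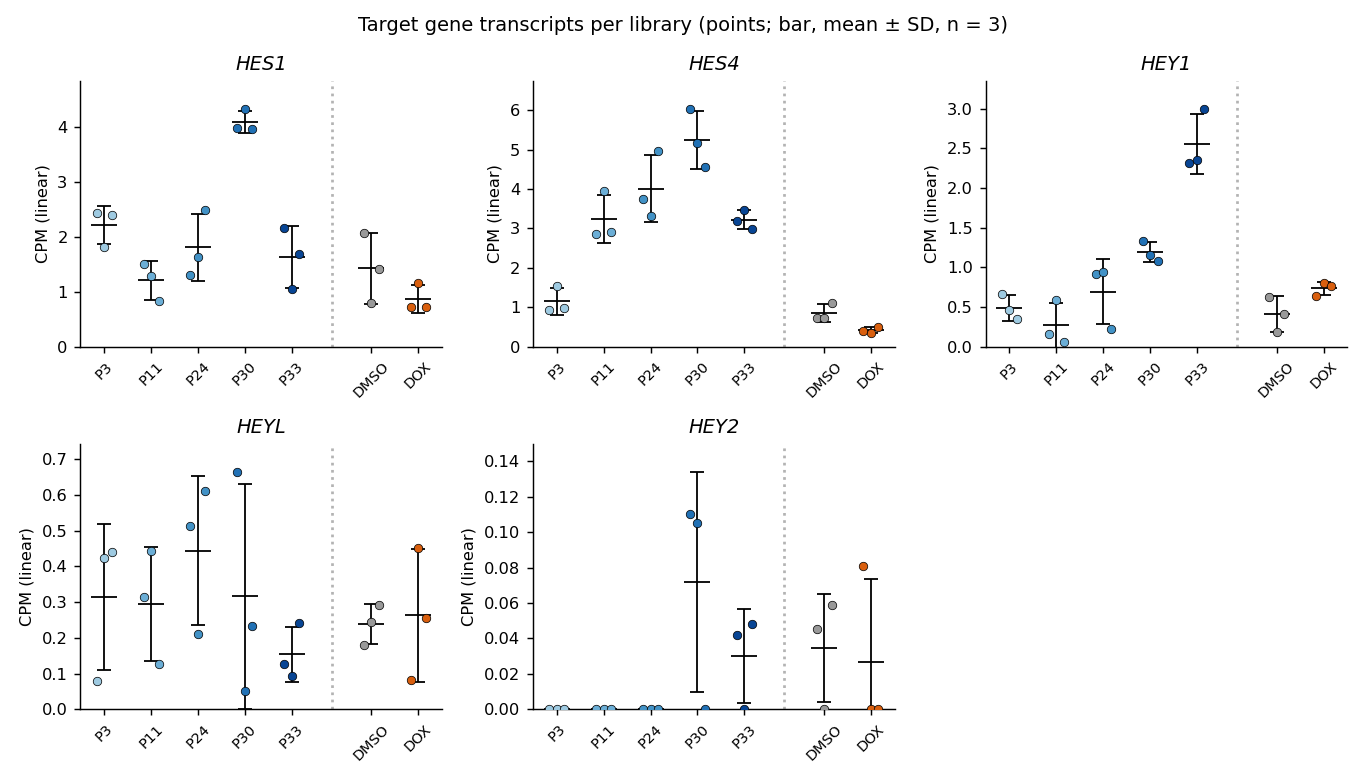
Levels of the target genes HES1, HES4, HEY1, HEYL and HEY2 in CPM (linear axes that differ between panels) for each library, by passage and, right of the dotted line, for DMSO and DOX at P11; points are libraries, bars are mean ± SD with n = 3, and bars are drawn down to 0 where the SD passes it. HES1 and HES4 had their highest means at P30 (4.08 and 5.25 CPM), and HEY1 at P33 (2.55 CPM).

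HES1 (chr3:194136148-194138732, plus strand) encodes a repressor whose transcript is short-lived and is known to oscillate in fibroblasts. Its level was 2.42, 1.81 and 2.40 CPM at P3, 1.51, 1.28 and 0.822 CPM at P11, and 1.31, 1.63 and 2.48 CPM at P24. It was 3.98, 4.31 and 3.95 CPM at P30, and 2.15, 1.04 and 1.69 CPM at P33. The P30 libraries were above all other passage libraries, while P33, P24 and P3 overlapped with each other. HES1 fell 1.79-fold from P3 to P11 (log2 -0.84, SE 0.284, adjusted p = 0.015), a call that was lost without P3 replicate 1 (adjusted p = 0.0531) or without P11 replicate 3 (adjusted p = 0.0855). It rose 2.21-fold from P24 to P30 (log2 1.14, SE 0.245, adjusted p = 3.72e-04) and fell 2.49-fold from P30 to P33 (log2 -1.32, SE 0.246, adjusted p = 3.93e-05). The difference between P33 and P3 did not pass (log2 -0.42, SE 0.258, adjusted p = 0.147), although it did without P33 replicate 1 (-0.70, adjusted p = 0.041).

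HES4 (chr1:998962-1000172, minus strand), a relative of HES1, had its largest single step early. Its level was 0.936, 1.54 and 0.981 CPM at P3, and 2.87, 3.94 and 2.91 CPM at P11. It was 3.76, 3.31 and 4.96 CPM at P24, 6.02, 5.16 and 4.57 CPM at P30, and 3.20, 3.48 and 2.99 CPM at P33. The P3 libraries were below all other passage libraries, and from there upward each passage overlapped the next in order of mean. From P3 to P11 HES4 rose 2.79-fold (log2 1.48, SE 0.217, adjusted p = 1.11e-06), while HES1, with the same paired letters in its promoter, fell over the same step. HES4 did not pass from P11 to P24 (log2 0.31) or from P24 to P30 (log2 0.38, adjusted p = 0.0782), though without P24 replicate 3 the latter did (0.58, adjusted p = 0.0179). It fell by 0.71 on the log2 scale from P30 to P33 (SE 0.173, adjusted p = 9.26e-04) and remained 2.76-fold above P3 at P33 (log2 1.46, SE 0.212, adjusted p = 3.00e-07).

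HEY1, a repressor of the HEY family, was the 1 member that rose from P30 to P33. It had 17, 12 and 7 reads at P3 (0.49 ± 0.16 CPM), 3, 12 and 1 reads at P11 (0.27 ± 0.28 CPM), and 16, 18 and 5 reads at P24 (0.692 ± 0.41 CPM). It had 24, 22 and 14 reads at P30 (1.19 ± 0.12 CPM) and 55, 50 and 62 reads at P33 (2.55 ± 0.38 CPM). The P33 libraries were above all P30 libraries, which were above all libraries of P3, P11 and P24, and these 3 passages overlapped. HEY1 rose 2.12-fold from P30 to P33 (log2 1.08, SE 0.307, adjusted p = 0.00386), and it was 5.05-fold higher at P33 than at P3 (log2 2.34, SE 0.334, adjusted p = 2.46e-07). Earlier steps did not pass: the log2 change was -0.78 from P3 to P11 (adjusted p = 0.248), 1.18 from P11 to P24 (adjusted p = 0.0831) and 0.85 from P24 to P30 (adjusted p = 0.095). These calls changed when single libraries were left out. Without P11 replicate 2 the first was -2.07 (adjusted p = 0.0193) and the second 2.47 (adjusted p = 0.0066). Without P24 replicate 3 the second was 1.67 (adjusted p = 0.0093), and without P24 replicate 2 the third was 1.18 (adjusted p = 0.0491).

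HEYL and HEY2, the remaining HEY-family repressors, were close to the detection limit. HEYL (chr1:39623435-39639643, minus strand) had 1 to 14 reads in each library and passed no comparison. HEY2 (chr6:125747664-125761269, plus strand) had 10 reads over all 21 libraries. It had none at P3, P11 or P24, which allows up to 0.0417, 0.0543 and 0.0504 CPM (3 counts summed over the group, counting error only). It had 4 reads at P30, 2 at P33, 2 with DOX and 2 with DMSO, so differences between passages were not detectable at this depth.

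Set side by side, the steps differed in which members passed. From P3 to P11, 1 of the 8 tested members rose (HES4) against 22.9% of all genes tested, and 2 fell (HES1 and NOTCH3) against 23.6%. From P11 to P24, 2 rose (NOTCH3 and NOTCH1) against 16.0%, and 0 fell against 17.7%. From P24 to P30, 2 rose (JAG1 and HES1) against 18.0%, and 1 fell (NOTCH1) against 17.1%. Without P24 replicate 3, 5 members passed that step in place of 3. From P30 to P33, 1 rose (HEY1) against 23.6%, and 4 fell (JAG1, HES1, HES4 and NOTCH3) against 24.8%. Over the whole span from P3 to P33, 3 rose (HEY1, HES4 and NOTCH3) against 34.5% and 0 fell against 33.3%, with a median log2 change of 0.12 over the 8 members and 0.00 over all genes. Over the whole span the rising share, 37.5%, was close to the background and the falling share was below it, and no test compares the list with other genes.

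**Figure D3:**
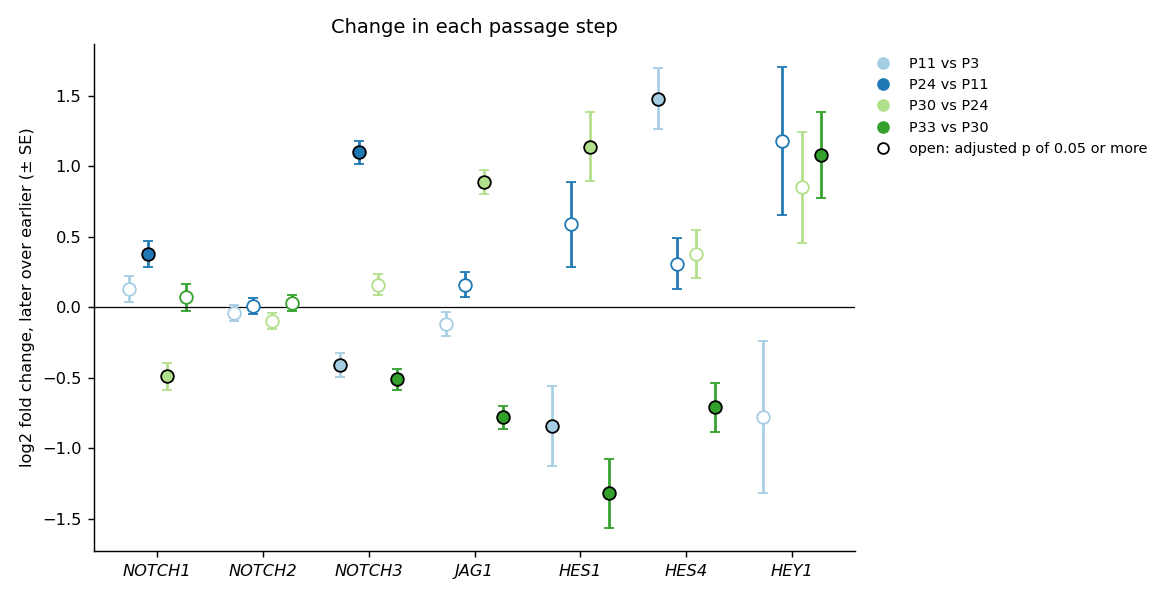
Log2 fold change with its SE for the tested members other than HEYL, which had few reads, at each passage step (P11 over P3, P24 over P11, P30 over P24, P33 over P30), with open points where the adjusted p was 0.05 or more. JAG1 and HES1 rose into P30 and fell after it, and HEY1 rose after it.

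Markers of dividing cells were at their lowest at the passage where JAG1 and HES1 peaked. The summed level of 8 cycling genes was 1140 to 1230 CPM at P3, 667 to 780 CPM at P11, 670 to 696 CPM at P24, 329 to 336 CPM at P30 and 486 to 521 CPM at P33. All 8 fell from P24 to P30, and all 8 rose from P30 to P33. Their part in the member results was not tested. The 7 mural and smooth muscle markers other than NOTCH3 summed to 299 to 302 CPM at P3, their highest, and to 217 to 238 CPM at P11, 229 to 243 CPM at P24, 248 to 250 CPM at P30 and 142 to 150 CPM at P33. CSPG4, the largest part at P3, went from a mean of 159 CPM at P3 to 61.5 CPM at P33. CNN1, alone among these markers, was lowest at P11 (27.6 CPM) and highest at P30 (90.5 CPM), like NOTCH3. The part of these markers was not tested either. The melanocyte list summed to 71.8 to 75.7 CPM at P30 against 39.7 to 46 CPM at P24 and 40.1 to 41 CPM at P33, nearly all of it MITF, and TYR and SOX10 had no read in the passage libraries.

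Across the 15 passage libraries, Pearson correlations of log2 CPM described how the members varied together. The libraries share their passage means and depth, so these values are a description. JAG1 went with HES1 (r = 0.73) and with NOTCH3 (r = 0.69), and NOTCH3 with HES1 (r = 0.64) and HES4 (r = 0.55). HES1 and HES4, the pair with like promoters, had r = 0.18, and HES4 and HEY1 had r = 0.25. NOTCH2 ran against JAG1 (r = -0.58). The best matches below were each picked from 10401 or 10402 genes of at least 5 CPM. A high r from so many candidates does not show shared control. The profile most like that of NOTCH3 was NR2F1 (r = 0.981), followed by GALNT10 (0.977). JAG1 was most like PRICKLE2 and SIK2 (0.952 each), and HES4 most like LANCL1 (0.966) and UBXN7 (0.956). HES1 was most like LSM1 (0.940), and HEY1 most like MAN2B1 (0.900) and H1-2 (0.898). NOTCH1 was most like IPO5 (0.881) and CHN1 (0.840), and NOTCH2 most like CEP97 (0.818) and ADARB1 (0.815). For HEYL the best matches were FZD2 (0.688) and TOR4A (0.687).

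Doxorubicin, an anthracycline that damages DNA, was compared with DMSO in P11 cells. NOTCH3, JAG1 and NOTCH1 rose and HES4 fell: 3 of the 8 tested members were higher, against 16.7% of all genes tested, and 1 was lower, against 20.6%. The median log2 change was 0.16 over the 8 members and -0.01 over all genes. Leaving out DOX replicate 1 left 2 members passing in place of 4.

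NOTCH3 had 20.4, 15.5 and 17.2 CPM with DOX and 12.8, 11.8 and 12.7 CPM with DMSO. Every DOX library was above every DMSO library, and the rise was 1.43-fold (log2 0.52, SE 0.0888, adjusted p = 1.72e-05). JAG1 had 23.1, 20.9 and 22.7 CPM with DOX and 18.7, 18.1 and 18.3 CPM with DMSO. These groups did not overlap, and JAG1 rose 1.21-fold (log2 0.28, SE 0.081, adjusted p = 0.00715). NOTCH1 had 28, 27.6 and 27.8 CPM with DOX and 21.3, 25.0 and 25.0 CPM with DMSO, again without overlap. Its rise of 1.17-fold (log2 0.23, SE 0.0869, adjusted p = 0.0342) was lost when any of DOX replicates 1, 2 or 3 (adjusted p = 0.0867, 0.0582 and 0.0712) or DMSO replicate 1 (0.15, adjusted p = 0.261) was left out. NOTCH2 did not pass (184 ± 12 CPM with DOX and 191 ± 12 CPM with DMSO, log2 -0.05, adjusted p = 0.477).

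Among the targets, HES4 had 10, 7 and 10 reads with DOX (0.403, 0.351 and 0.510 CPM) and 16, 12 and 19 reads with DMSO (0.721, 0.728 and 1.1 CPM). The groups did not overlap, and HES4 fell 2-fold (log2 -1.0, SE 0.365, adjusted p = 0.0301). That call was lost without DOX replicate 1 (adjusted p = 0.0789), DOX replicate 2 (adjusted p = 0.0833) or DMSO replicate 3 (adjusted p = 0.151). HES1 had 0.726, 1.15 and 0.714 CPM with DOX and 2.07, 0.788 and 1.41 CPM with DMSO, with overlap, and did not pass (log2 -0.78, SE 0.332, adjusted p = 0.0633). It did pass without DOX replicate 2 (-1.03, adjusted p = 0.0325), without DMSO replicate 2 (-1.04, adjusted p = 0.0139) or with no filter on low counts (-0.80, adjusted p = 0.0252). HEY1 was at 0.738 ± 0.082 CPM with DOX and 0.408 ± 0.22 CPM with DMSO and did not pass (log2 0.76, SE 0.462, adjusted p = 0.204). HEYL did not pass (log2 0.09).

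Cycling markers summed to 61.7 to 68.5 CPM with DOX and 366 to 386 CPM with DMSO, and all 8 fell. The mural markers other than NOTCH3 summed to 176 to 185 CPM with DOX and 142 to 159 CPM with DMSO. Counting NOTCH3, 4 of the 8 mural genes rose and 1 fell. The leukocyte list summed to 2.09 to 2.51 CPM with DOX and 0.645 to 1.03 CPM with DMSO, with PTPRC at 92 and 8 reads, and the keratinocyte list to 15.2 to 16.3 and 12.2 to 13.1 CPM. The part of these lists in the member results was not tested.

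The effect of DOX was then compared with the change from P3 to P33, as the difference of the log2 changes in a single model. The baselines, DMSO at P11 and cells at P3, lie in different parts of the table. Even at P11 the parts had unlike levels: HES4 was at 3.24 CPM with no agent and 0.855 CPM with DMSO. The part of this in the differences was not tested. Of the 8 tested members, 2 had a lower DOX effect, against 25.4% of all genes tested, and 0 a higher one, against 25.8%. HES4 rose by 1.46 over the passages and fell by 1.0 with DOX, a difference of -2.46 (SE 0.423, adjusted p = 1.04e-05). For HEY1 the changes were 2.34 and 0.76, a difference of -1.57 (SE 0.608, adjusted p = 0.0303). This second call was lost without P3 replicate 2 or 3 (adjusted p = 0.0546 and 0.0654), P33 replicate 3 (0.0554), DOX replicate 1 (0.0567), or DMSO replicate 1 or 3 (0.271 and 0.0505), and with limma-voom (0.0549). For NOTCH3, higher in both comparisons, the difference was 0.17 (SE 0.117, adjusted p = 0.247) and did not pass.

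**Figure D4:**
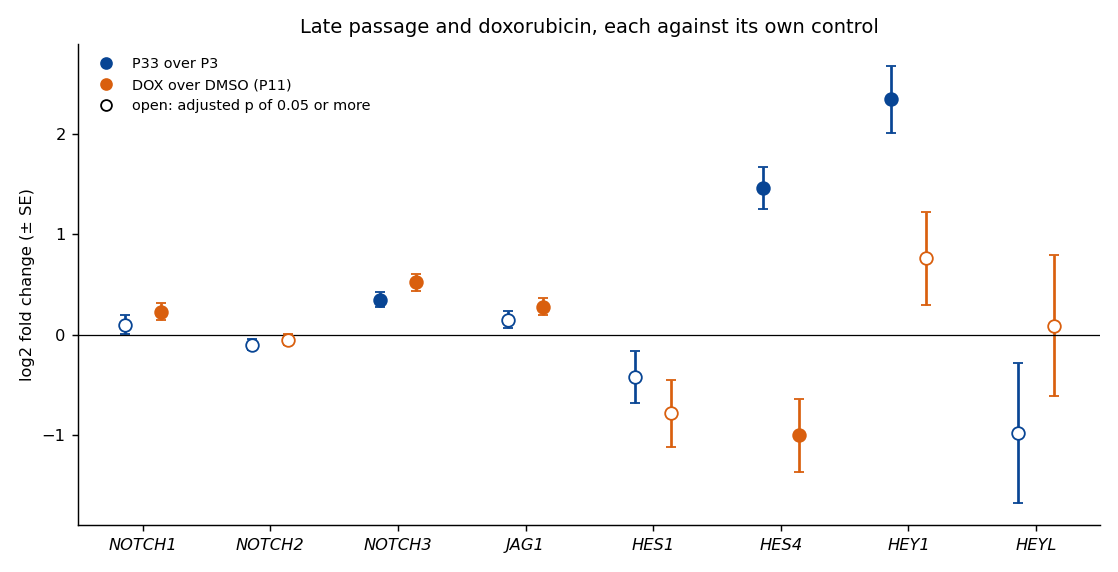
Log2 fold change with its SE for each tested member, P33 over P3 and DOX over DMSO, with open points where the adjusted p was 0.05 or more. HES4 lies at 1.46 over the passages and at -1.0 with DOX, and NOTCH3 is above 0 in both.

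The wider pathway was described by a list of 77 genes, of which 68 could be tested. The 68 include HES2, which passed the count filter through the DOX libraries, where it is high. Its DOX result in the counts below is therefore no independent support. From P3 to P33, 24 rose and 23 fell, with a median log2 change of -0.07 beside 0.00 for all genes. With DOX, 13 rose and 21 fell, with a median of -0.03 beside -0.01. By the background shares given above, 34.5% and 33.3% of all genes passed in the first comparison and 16.7% and 20.6% in the second. Because the use of strand in counting is unknown, genes that overlap an expressed gene on the opposite strand are uncertain: of those named below, these are ADAM17, APH1A, BHLHE40, CCND1, DLK2, DLL1, DTX3L, MAML3, NEURL1 and NEURL1B.

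Of 6 tested ligands other than JAG1, 2 rose and 2 fell from P3 to P33, and 2 rose and 1 fell with DOX. DLL4, a ligand best known from blood vessels, fell from 9.76 to 4.78 CPM between P3 and P33 (log2 -1.02, SE 0.168, adjusted p = 2.96e-06). With DOX it fell from 5.55 ± 0.58 to 1.64 ± 0.17 CPM (log2 -1.76, SE 0.23, adjusted p = 1.72e-07). JAG2, the other Jagged ligand, rose from P3 to P33 (log2 0.55, adjusted p = 0.00443) and did not pass with DOX (log2 0.21, adjusted p = 0.42). The atypical ligand DLK2 rose in both (log2 0.78, adjusted p = 0.0348, and 0.96), but it overlaps ABCC10 on the opposite strand, which had 6305 passage reads beside 278 for DLK2, so its reads are uncertain. The atypical ligand DNER fell by 1.02 over the passages and rose by 1.29 with DOX (adjusted p = 0.0437). That rise rests on few reads, 43 with DOX (0.675 CPM) and 15 with DMSO (0.278 CPM). The summed endothelial markers were 3.97 to 4.48 CPM at P3 and 4.92 to 6.35 CPM at P33, and 2.29 to 2.96 CPM with DOX and 2.76 to 4.6 CPM with DMSO, and their part was not tested. DLL1 and DLL3, ligands of the Delta type, did not pass in either comparison (log2 -0.41 and -0.17 over the passages, -0.78 and 1.27 with DOX). NOTCH4 and DLK1 had too few reads to be tested.

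In the receptor cleavage group of 9 genes, 3 rose and 3 fell over the passages, and 0 rose and 4 fell with DOX. The proteases ADAM10 (log2 0.37) and ADAM17 (log2 0.54) rose from P3 to P33 and fell with DOX (log2 -0.13 and -0.18). Of the gamma-secretase genes, APH1A fell by 0.70 over the passages. PSEN2 overlaps another gene, had 0 reads in the passage libraries and 257 in the DOX and DMSO libraries, and is uncertain. The counts of 9 and 68 tested genes include PSEN2, although it could show no change over the passages. PSENEN had 57 reads in the passage libraries and 273 in the DOX and DMSO libraries. In the glycosylation group of 10 tested genes, whose enzymes add sugars to the receptors, 4 rose and 4 fell over the passages, and 4 rose and 1 fell with DOX. POGLUT3 rose by 0.65 over the passages, and POGLUT2 by 0.46 with DOX.

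Genes of trafficking and ubiquitination had 8 rising and 2 falling of 13 from P3 to P33, and 4 rising and 4 falling with DOX. NEURL1, a ubiquitin ligase for ligands, rose (log2 1.77, SE 0.324), as did DTX3L (1.30, SE 0.114), DTX4 (0.83) and NUMBL (0.68), while NEURL1B fell by 1.57 (SE 0.159). DTX3L overlaps PARP9 on the opposite strand, so its reads are uncertain. With DOX, DTX4 rose from 5.44 ± 0.58 to 14.8 ± 1.2 CPM (log2 1.46, SE 0.113), and FBXW7, which marks the intracellular domain for breakdown, rose by 0.51. NEURL1B fell by 1.61.

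The corepressors, which keep RBPJ targets silent, had 1 gene rising and 9 falling of 14 from P3 to P33, and 1 rising and 7 falling with DOX. TLE4 was the one that rose (log2 0.51 over the passages and 0.67 with DOX). HDAC1, a histone deacetylase, fell from 156 to 80.9 CPM over the passages (log2 -0.94), and TLE3 fell in both (log2 -0.84 and -1.51), from 23.2 ± 2.3 to 8.16 ± 2 CPM with DOX. RBPJ and its coactivators had 3 rising and 2 falling of 9 over the passages, and 0 rising and 3 falling with DOX. RBPJ itself was at 85.0, 85.8, 82.8, 71.9 and 111 CPM on average at P3, P11, P24, P30 and P33. It rose from P3 to P33 (log2 0.38) and fell with DOX (log2 -0.25). RBPJ had its lowest mean at P30, where HES1 and HES4 had their highest. MAML3, a coactivator, rose by 0.53 over the passages and fell by 0.83 with DOX.

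**Figure D5:**
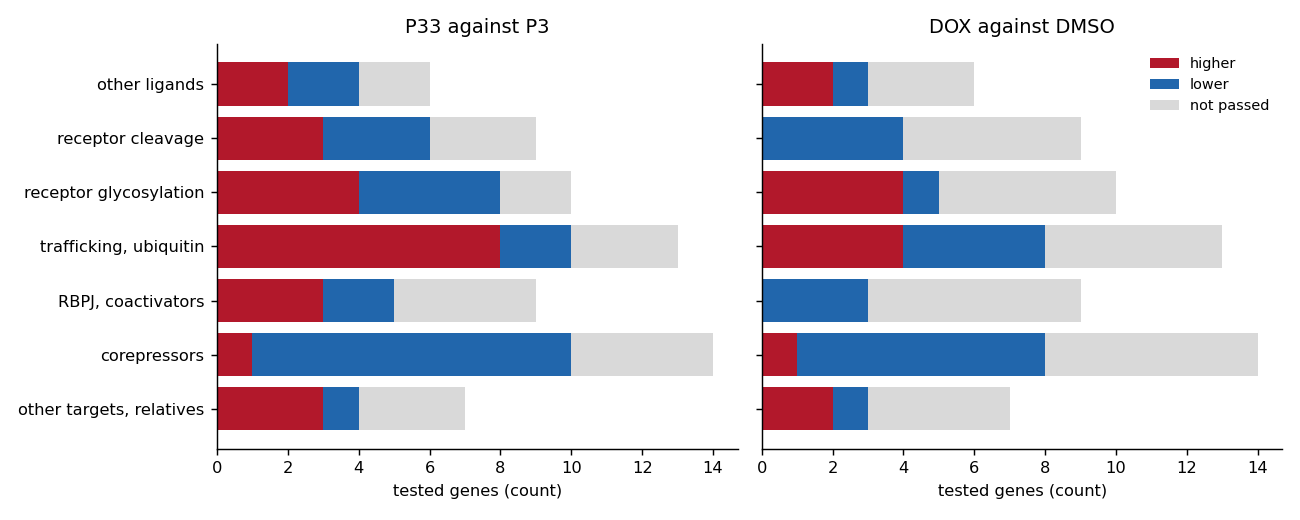
Number of tested pathway genes that were higher, lower or did not pass (adjusted p of 0.05 or more), by role, for P33 against P3 and for DOX against DMSO. Corepressors had 9 of 14 lower over the passages and 7 of 14 lower with DOX. The other targets include HES2, which passed the count filter through the DOX libraries, where it is high.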

How the data were processed

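The deposited table holds read counts per gene that the authors made and did not normalize. The submitters' processing notes name HISAT2 2.1.0, featureCounts 2.0.1 of Subread, cutadapt 3.3, DESeq2 1.34.0 and builds hg38 and GRCh38.p13, with no roles, order or options. The table was fitted whole with edgeR 4.0.16 in R 4.3.3: TMM factors, a filter at a minimum count of 10 (16821 of 61544 genes kept), group means over 21 libraries with 14 residual degrees of freedom, and quasi-likelihood tests with Benjamini-Hochberg adjustment. The scripts were tested on simulated data. The members and gene lists were chosen with earlier results of these data known. Pathway genes named are the 5 largest rises and 5 largest falls past the threshold at 1 CPM or more in P33 against P3 and in DOX against DMSO, plus the ligands, and others named were chosen after their values were seen. Alternatives were RLE factors, DESeq2 1.42.0, limma-voom (limma 3.58.1), no filter, a minimum count of 50, each part of the table alone, a replicate block, and each library left out. Depth sets the precision of HES and HEY genes, and floors cover counting error only.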

Additional observations from a re-analysis of the deposited data

Results flagged for a closer look

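The change with DOX differed from the change between P3 and P33, by the interaction test in edgeR, in 17 pathway genes with a higher DOX effect and 18 with a lower one of 68 tested, beside 25.8% and 25.4% of all genes tested. The 68 include HES2, which passed the count filter through the DOX libraries. Values are given here for the members that passed and for the pathway genes, among those named by size of change, that passed in opposite directions in the 2 comparisons. The difference is the log2 DOX effect minus the log2 P33 effect. It was -2.46 for HES4 and -1.57 for HEY1. Among the pathway genes it was 2.31 for DNER (adjusted p = 0.00128), which fell by 1.02 over the passages and rose by 1.29 with DOX. DNER had only 43 reads with DOX and 15 with DMSO. Its P11 level also differed between the parts of the table, at 2.24 CPM with no agent and 0.278 CPM with DMSO. For DTX3L, MAML3 and NUMBL the differences were negative. The difference was -1.79 for DTX3L (adjusted p = 4.75e-11), with changes of 1.30 and -0.49. For MAML3 it was -1.36 (adjusted p = 1.47e-08), with changes of 0.53 and -0.83. For NUMBL it was -1.0 (adjusted p = 1.24e-10), with changes of 0.68 and -0.32.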

How the results depend on the processing

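Counts of members, pathway genes and all genes past the threshold stayed within 1.5 times of the reported value in 344 of 354 recalculations. The number of members passing in the difference of effects was 1 in place of 2 with limma-voom and with a minimum count of 50, which drops HEY1. When 1 library was left out, members passing ranged from 3 to 5 for P30 against P24, from 2 to 5 for DOX against DMSO, and from 1 to 2 for the difference of effects. Of 753 recalculated member values, 706 kept direction and side of the threshold, 15 came to pass and 16 ceased to pass, and 16 values that did not pass changed sign. Among these, HEYL was 0.19 with limma-voom and 0.01 with the replicate block for P11 against P3, and -0.18 with limma-voom for DOX against DMSO, and the DOX-minus-P33 difference of NOTCH2 was -0.01 with a minimum count of 50. With 1 library left out, HEYL ranged from -0.49 to 0.33 for P11 against P3, from -1.79 to 0.08 for P30 against P24, from -1.62 to 0.26 for P33 against P30 and from -0.55 to 0.58 for DOX against DMSO. NOTCH2 ranged from -0.02 to 0.05 for P24 against P11, from -0.11 to 0.01 for DOX against DMSO and from 0.00 to 0.09 for the difference. NOTCH1 ranged from -0.02 to 0.17 for P33 against P30, and HES1 from -0.62 to 0.06 for the difference. The cause was not tested. No scaling moved the median of all genes by more than 0.07.

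Same-numbered replicates did not deviate together (correlations from -0.08 to 0.04), so no pairing by number was detected. This cannot show that the samples were not paired. With the replicate block the members passing numbered 3, 2, 3, 5 and 3 in the passage comparisons, 4 with DOX and 2 in the difference, as without it. Depth limits HEY2, HEYL, HEY1 and, in the DOX and DMSO libraries, HES4. The difference of effects could not be fitted on each part alone.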

Other observations

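HES2, a HES-family repressor with a mean below 1 CPM in every group, was chosen after its values were seen. It had 62 reads with DOX and 2 with DMSO. The ratio per scaled library size was 26.8, a value that is imprecise because it rests on 2 DMSO reads. HES2 passed the count filter through the DOX libraries, where it is high, and was picked by its values, so no test is given. It is nevertheless among the 68 tested pathway genes that the counts above cover. Its reads numbered 12 at P3 and 32 at P33. BHLHE40, a bHLH relative of the HES genes, fell by 0.66 with DOX, and CCND1, which encodes cyclin D1, rose by 0.46.

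P11 cells appear in both parts of the table, which were counted differently and may differ in other ways, so the following values stand side by side with no test. PDGFRA was at 81.4 CPM in P11 cells with no agent and at 738 CPM with DMSO, and DCN at 387 and 2590 CPM. CCND1 was at 2980 and 1150 CPM, and THY1 at 775 and 865 CPM. What sets the parts apart was not tested. HES4 was at 3.24 ± 0.61 CPM in P11 cells with no agent and at 0.855 ± 0.23 CPM with DMSO. NOTCH1 was at 16.6 ± 1.5 and 23.8 ± 2.2 CPM, and NOTCH3 at 16.8 ± 0.46 and 12.4 ± 0.58 CPM. NOTCH2NLC had 0 reads in the passage libraries and 1148 in the DOX and DMSO libraries, and NOTCH2NLA had 0 and 96.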
